A study of Mus musculus with 12 samples.

Results

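The primary granule genes of the neutrophil lineage were followed through 12 RNA-seq libraries of mouse bone marrow cells sorted as hematopoietic stem cells (HSCs). The 5 genes were Mpo, Elane, Prtn3, Ctsg and Ms4a3, chosen by gene name out of 31272 names, and each stood on a single row of every table. The libraries fell into 4 groups of 3, labelled Ctrl, IR, Ab_IR and L_IR, all from wild-type mice. In the study's methods HSCs are the Lineage-, Sca-1+, c-Kit+, Flt3-, CD34- cells of the marrow. IR stands for ionizing radiation, and the study's methods describe whole-body exposure of C57BL/6 mice to a sublethal dose of gamma rays from a cobalt source. The labels place cell collection at 3 days after IR, with the same wording for Ctrl. Neither Ab nor L is written out in full there, and the names are kept as they stand. Neither the age of these mice nor whether the replicates came from separate mice is stated. The p-values therefore measure the spread between these libraries, which may be technical.

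Primary (azurophil) granules are the first granules a neutrophil precursor makes, at the promyelocyte stage. Myeloperoxidase, encoded by Mpo, uses hydrogen peroxide from the NADPH oxidase to make hypochlorous acid. Elane, Prtn3 and Ctsg encode the serine proteases neutrophil elastase, proteinase 3 and cathepsin G, which are stored active in the granule and kill microbes after it fuses with a phagosome. Ms4a3 encodes a 4-pass membrane protein of granulocyte-monocyte progenitors and is used as a marker of that stage. The transcripts are made early and are shut off before the secondary granules form, so they are abundant in progenitors and low in mature neutrophils.

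Levels are given as FPKM, that is, sequenced fragments divided by gene length in kilobases and by the size of the library, so levels of different genes can be compared per length. Read counts cannot be had from FPKM, and depth is unknown. Libraries summed to 344338 to 405123 FPKM, with 11467 to 12167 genes at 1 FPKM or more. Ctrl replicate 1 differed from the rest in that 44.1% of its rows were 0, where the other 11 libraries had 24.7% to 27.3%. Nppa, an atrial hormone gene, also split the libraries, at 51.2 to 63.9 FPKM in IR and the remaining Ctrl libraries but at most 0.26 FPKM in Ab_IR, L_IR and Ctrl replicate 1, so a batch and the differences between IR and Ab_IR or L_IR cannot be told apart. The same holds for Ctrl against Ab_IR or L_IR once Ctrl replicate 1 is left out. Of the defining markers of the label, Kit was at 6.70 to 25.5 FPKM and Ly6a at 25.9 to 61.5 FPKM, whereas Hoxb5, Fgd5 and Mecom did not exceed 0.25 FPKM in any library. Transcripts of Cd34 and Flt3, whose proteins the gate should lack, were present and go against the label, with group means (Ctrl first, then IR, Ab_IR, L_IR) of 20.0, 3.78, 17.5 and 15.8 FPKM for Cd34 and 10.5, 1.08, 7.50 and 5.87 FPKM for Flt3. Itgam, a gene of a lineage that the sort should remove, was present at 23.2 to 53.0 FPKM. The libraries are therefore described here as cells sorted as HSCs.

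The members lie on 4 chromosomes of GRCm38. In GENCODE M21, Elane (chr10:79886247-79888215, plus strand) starts 3073 bases after the end of Prtn3 (chr10:79874476-79883174, plus strand). Mpo is at chr11:87793581-87804413 on the plus strand, Ctsg at chr14:56099881-56102574 on the minus strand and Ms4a3 at chr19:11629496-11640851 on the minus strand. Stretches of 50 bases shared with other genes were absent from the transcripts of Elane, Prtn3, Ctsg and Ms4a3 and made up 0.23% of those of Mpo. Plppr3, on the opposite strand, overlaps the annotated start of Prtn3, and it was listed at 31.8 to 41.4 FPKM.

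The 250 bases before each member's RefSeq start (GRCm38.p6), read on the strand of the gene, are shown as a description. Binding of the ETS factor PU.1, or of any other factor, was not tested. Capitals mark GGAAGT, a match to the ETS motif. The windows are chr11:87793534-87793783 for Mpo, chr10:79886062-79886311 for Elane, chr10:79879417-79879666 for Prtn3, chr14:56102575-56102824 for Ctsg and chr19:11640852-11641101 for Ms4a3, with Ctsg and Ms4a3 on the minus strand. For Mpo, Elane and Prtn3 the RefSeq start lies inside the GENCODE interval given above. The windows of Mpo and Elane therefore overlap the gene as annotated there, and that of Prtn3 lies within it.
Mpo: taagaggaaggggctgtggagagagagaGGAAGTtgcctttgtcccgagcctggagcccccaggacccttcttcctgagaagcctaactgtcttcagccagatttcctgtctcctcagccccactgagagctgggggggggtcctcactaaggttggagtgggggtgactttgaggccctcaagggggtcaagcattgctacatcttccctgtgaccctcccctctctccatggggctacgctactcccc
Elane: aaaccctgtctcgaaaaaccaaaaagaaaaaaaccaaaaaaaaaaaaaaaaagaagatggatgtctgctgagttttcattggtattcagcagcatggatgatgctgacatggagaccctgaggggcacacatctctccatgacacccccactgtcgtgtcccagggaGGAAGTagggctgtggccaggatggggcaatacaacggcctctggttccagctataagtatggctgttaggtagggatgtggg
Prtn3: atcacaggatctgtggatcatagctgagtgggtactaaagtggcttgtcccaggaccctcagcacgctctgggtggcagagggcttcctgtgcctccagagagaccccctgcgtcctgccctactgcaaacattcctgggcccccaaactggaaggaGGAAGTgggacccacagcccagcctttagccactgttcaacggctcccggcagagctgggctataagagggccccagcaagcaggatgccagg
Ctsg: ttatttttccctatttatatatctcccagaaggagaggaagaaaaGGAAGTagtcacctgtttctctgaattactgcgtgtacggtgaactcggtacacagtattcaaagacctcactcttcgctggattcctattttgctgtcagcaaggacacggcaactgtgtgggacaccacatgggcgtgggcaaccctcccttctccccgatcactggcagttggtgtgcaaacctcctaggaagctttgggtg
Ms4a3: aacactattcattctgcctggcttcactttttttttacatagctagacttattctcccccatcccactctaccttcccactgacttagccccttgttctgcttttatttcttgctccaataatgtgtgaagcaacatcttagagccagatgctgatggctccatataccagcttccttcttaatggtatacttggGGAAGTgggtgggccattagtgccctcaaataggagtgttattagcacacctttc

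GGAAGT, searched on both strands, was found in all 5 windows and in 19.8% of the 32536 promoter windows of RefSeq genes. It stood on the strand of the gene in each, starting 222, 83, 93, 205 and 55 bases before the start of Mpo, Elane, Prtn3, Ctsg and Ms4a3. The shorter core GGAA, which GGAAGT contains, was in 93.4% of all windows. The neighbouring genes Elane and Prtn3 were alike in further letters, with TATAA 31 and 32 bases before the start and CAACGG, the reverse complement of the MYB motif CCGTTG, 51 and 56 bases before it. TATAA was in 22.7% of all windows on either strand and CCGTTG in 4.06%. The RUNX motif TGTGGT, in 14% of all windows, matched only Ctsg, as ACCACA 79 bases before its start. Ctsg also held TTATA, the reverse complement of TATAA, at 236 bases. The C/EBP motif TTGCNNAA, in 9.57% of all windows, matched none of the 5. A match describes letters in the window, and the motifs were chosen with these promoters in view.

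The members were among the most abundant transcripts of every library. Their summed level was 7567 to 9129 FPKM, or 1.90% to 2.44% of all FPKM. Mpo ranked 5th to 13th among the gene rows of a library, Elane 11th to 23rd, Ctsg 15th to 35th, Prtn3 26th to 44th and Ms4a3 96th to 210th. Per length, the order was Mpo, Elane, Ctsg, Prtn3, Ms4a3 in Ctrl, IR and L_IR, and in the 3 Ab_IR libraries Prtn3 stood above Ctsg. The coefficient of variation over the 12 libraries was 4.93% for Mpo, 11.5% for Elane, 11.7% for Prtn3, 17.1% for Ctsg and 26% for Ms4a3.

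Mpo was level. It was listed at 3432, 2859 and 3136 FPKM in Ctrl replicates 1 to 3 and at 3249, 3156 and 3131 FPKM in IR. It stood at 3121, 3336 and 2959 FPKM in Ab_IR and at 3173, 3046 and 3243 FPKM in L_IR. Every pair of groups overlapped, and the highest library, Ctrl replicate 1, was 1.2 times the lowest, Ctrl replicate 2. The group means were 3143 ± 287 FPKM for Ctrl, 3179 ± 62.0 for IR, 3139 ± 189 for Ab_IR and 3154 ± 99.5 for L_IR (SD, n = 3 each).

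Elane and Prtn3 followed each other. Elane was listed at 2069, 2714 and 2665 FPKM for Ctrl, at 2334, 2247 and 2298 for IR, at 2463, 2657 and 2383 for Ab_IR and at 2034, 1955 and 2033 for L_IR. Prtn3 was listed at 904, 1281 and 1265 FPKM for Ctrl, at 1227, 1232 and 1229 for IR, at 1278, 1383 and 1263 for Ab_IR and at 1067, 1036 and 1041 for L_IR. For both genes, every Ab_IR library lay above every IR library and every IR library above every L_IR library. Ctrl replicate 1 was the lowest Ctrl library for both, and for Prtn3 it was the lowest of all 12.

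Ctsg and Ms4a3 shared another pattern, with the 3 IR libraries above the other 9. Ctsg was listed at 1582, 1471 and 1435 FPKM for Ctrl, at 1854, 1767 and 1828 for IR, at 1235, 1258 and 1216 for Ab_IR and at 1278, 1263 and 1233 for L_IR. Ms4a3 was listed at 216, 344 and 315 FPKM for Ctrl, at 465, 459 and 458 for IR, at 322, 297 and 295 for Ab_IR and at 262, 266 and 261 for L_IR. For Ctsg, all Ctrl libraries lay between IR and the other irradiated groups, which overlapped each other. For Ms4a3, the Ctrl libraries spanned the Ab_IR and L_IR values, with Ctrl replicate 1 the lowest of all.

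**Figure D1:**
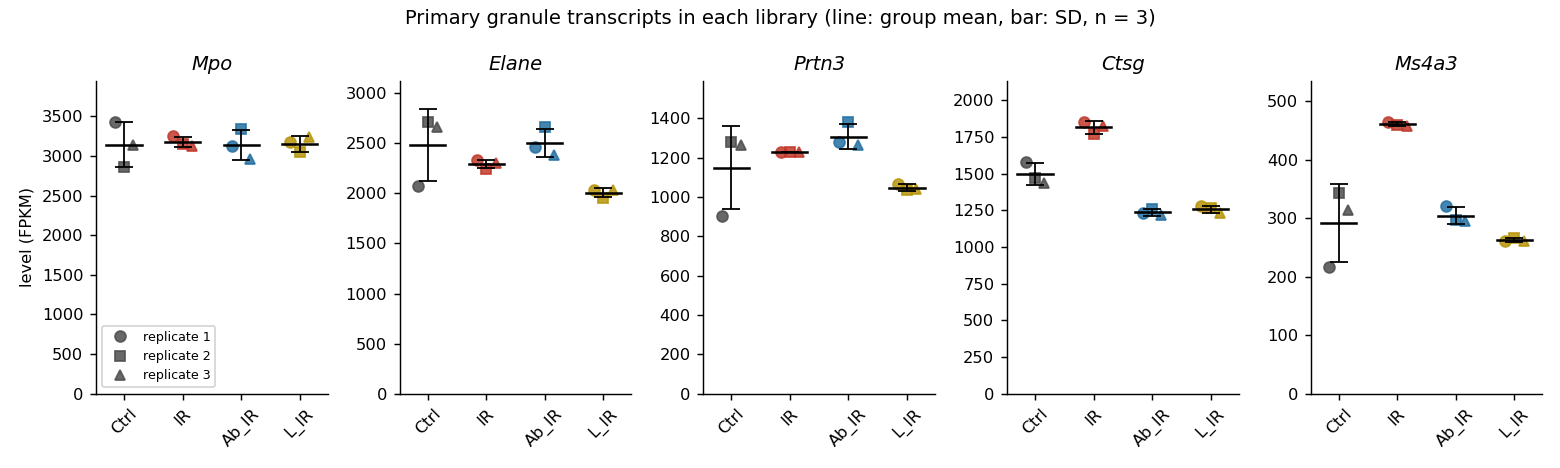
Level of each primary granule gene (FPKM, linear axis from 0) in each library of the 4 groups, with the replicate number as the marker shape, the group mean as a line and the SD as a bar (n = 3). Mpo stays between 2859 and 3432 FPKM throughout, while Ctsg and Ms4a3 are highest in the 3 IR libraries and Elane and Prtn3 are lower in L_IR than in IR or Ab_IR.

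The question behind IR against Ctrl is what irradiation changes in the sorted cells 3 days later. Ctsg and Ms4a3 were higher in IR, and Mpo, Elane and Prtn3 did not pass the test. Ms4a3 rose by 0.69 ± 0.172 on the log2(FPKM + 1) scale (SE, n = 3 against 3, limma adjusted p = 0.0195), and Ctsg by 0.28 ± 0.0833 (limma adjusted p = 0.0353). Percent changes are given here and in the other comparisons as the ratio of mean FPKM, a separate quantity from the log2 difference, and were 58.1% for Ms4a3 and 21.4% for Ctsg. Thus 2 of 5 members passed, beside 43.1% of the 12072 genes tested in either direction, 17.5% higher and 25.5% lower in IR. The libraries of the groups did not overlap for the same 2 members and for 58.1% of genes tested. The difference for Mpo was 0.02 with a 95% interval of -0.23 to 0.27, for Elane -0.10 with -0.41 to 0.21, and for Prtn3 0.11 with -0.24 to 0.47. No member differed by 2-fold, and 16.1% of genes tested had a difference at least as large as that of Ms4a3. In bulk samples, fewer cells of a type and less RNA per cell cannot be told apart, which holds for every difference given here.

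These calls rested on few libraries. Leaving out Ctrl replicate 1, which also keeps the comparison among libraries with Nppa, gave adjusted p = 0.00104 for Ctsg (0.32) and 3.51e-04 for Ms4a3 (0.49) in limma on the same genes. Elane then fell by 0.23 (limma adjusted p = 0.00346), so that 3 of 5 members passed beside 59.8% of all genes tested, with Ctrl replicates 2 and 3 averaging 2689 FPKM, and Prtn3 turned from 0.11 to -0.05 (limma adjusted p = 0.259). Leaving out Ctrl replicate 2 or 3 ended the call of Ctsg (limma adjusted p = 0.0611 and 0.0759), and leaving out any IR library ended both calls (limma adjusted p from 0.0643 to 0.145). Without a filter on low values neither passed, with limma adjusted p = 0.423 for Ctsg and 0.0562 for Ms4a3.

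Ab_IR against IR sets the group labelled Ab_IR beside irradiation alone. Ctsg and Ms4a3 were lower in Ab_IR. Ctsg fell by 0.55 ± 0.0366 on the log2 scale (limma adjusted p = 1.16e-05), a change of -31.9%, and Ms4a3 by 0.60 ± 0.0419 (limma adjusted p = 1.55e-05), a change of -33.9%. The 2 members that passed, both lower, stand beside 68.7% of 12067 genes tested in either direction with 39.4% higher and 29.4% lower in Ab_IR. Elane differed by 0.12 (95% interval 0.01 to 0.24, limma adjusted p = 0.0576) and Prtn3 by 0.09 (-0.01 to 0.19, limma adjusted p = 0.108), although the libraries of the groups did not overlap for either, as for 73% of genes tested. Without Ab_IR replicate 3, Elane passed with 0.16 (limma adjusted p = 0.0190). The difference for Mpo was -0.02 (-0.14 to 0.10). Quantile normalization turned Elane to -0.25 (limma adjusted p = 0.0117) and brought Mpo past the threshold at -0.33 (limma adjusted p = 0.0294). Rescaling the libraries without immunoglobulin genes turned Elane to -0.030 and Prtn3 to -0.065, neither of which passed. Mpo then passed at -0.17 (limma adjusted p = 0.0389).

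L_IR against IR gave a lower level for every protease and for Ms4a3. Ms4a3 fell by 0.81 ± 0.0204 (limma adjusted p = 2.53e-07), a change of -42.9%, and Ctsg by 0.53 ± 0.0289 (limma adjusted p = 6.62e-06), a change of -30.7%. The neighbours on chromosome 10 changed less, with Prtn3 at -14.7% (-0.23 ± 0.0230, limma adjusted p = 0.000125) and Elane at -12.4% (-0.19 ± 0.0294, limma adjusted p = 0.00103). The 4 of 5 members that passed stand beside 66.8% of 12163 genes tested in either direction with 40.8% higher and 26% lower in L_IR. These 4 genes did not overlap between the groups, as held for 71.2% of genes tested. The difference for Mpo was -0.01 (-0.09 to 0.07), and it passed only under quantile normalization, at -0.21 (limma adjusted p = 0.00131). Both comparisons share the IR libraries, so the falls of Ctsg and Ms4a3 in each are not separate evidence. With all 12 libraries in a single fit, Elane (limma adjusted p = 0.135) and Prtn3 (limma adjusted p = 0.124) no longer passed.

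Ab_IR and L_IR differed directly in Elane, Prtn3 and Ms4a3. Elane was higher in Ab_IR by 0.32 ± 0.0508 (limma adjusted p = 0.00322), or 24.6%, and Prtn3 by 0.32 ± 0.0457 (limma adjusted p = 0.00201), or 24.8%. Ms4a3 was higher by 0.21 ± 0.0430 (limma adjusted p = 0.00852), or 15.8%. The 3 members that passed, all higher, stand beside 38% of 12194 genes tested in either direction with 18.2% higher and 19.8% lower in Ab_IR, and 51.9% of genes had groups that did not overlap, as these 3 had. Ctsg differed by -0.02 (-0.11 to 0.06) and Mpo by -0.01 (-0.14 to 0.12). Immunoglobulin genes held much of the FPKM sum, and rescaling the libraries without them moved the median of all genes by 0.117 in this comparison. Elane (0.17, limma adjusted p = 0.0652) and Ms4a3 (0.07, limma adjusted p = 0.377) then missed the threshold, Prtn3 passed at 0.17 (limma adjusted p = 0.0456), and Ctsg passed at -0.17 (limma adjusted p = 0.0261). Elane also missed it without a filter on low values (limma adjusted p = 0.0622), and Prtn3 (0.0742) and Ms4a3 (0.306) with all 12 libraries in a single fit.

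Against Ctrl, neither of these groups had a member that passed. In Ab_IR against Ctrl, 0 of 5 passed in limma, 1 of them with an unadjusted p under 0.05 (Ctsg, -0.27, 95% interval -0.49 to -0.06, limma adjusted p = 0.175), and 2.1% of 12134 genes tested passed, 1.45% higher and 0.651% lower. Ctsg was apart between the groups in every library, as were 33.5% of genes tested. In L_IR against Ctrl, 0 of 5 passed in limma, again 1 of them, Ctsg, with an unadjusted p under 0.05 (-0.25, -0.45 to -0.05, limma adjusted p = 0.127), and 8.84% of 12251 genes passed, 4.76% higher and 4.08% lower. Elane stood at -0.30 (-0.61 to 0.02) in L_IR against Ctrl. Ctsg and Elane had no overlap between these groups, as for 36.1% of genes. Without Ctrl replicate 1, 4 of 5 members fell in L_IR against Ctrl beside 20.6% of all genes that passed in either direction, namely Elane by 0.42 (limma adjusted p = 0.00162), Ms4a3 by 0.32 (0.00816), Prtn3 by 0.28 (0.00623) and Ctsg by 0.21 (0.0208), while in Ab_IR against Ctrl the lowest limma adjusted p was 0.0705, for Ctsg. The Ctrl libraries kept in those fits had Nppa, which did not exceed 0.26 FPKM in Ab_IR or L_IR. A batch and these differences therefore cannot be told apart. With all 12 libraries in a single fit, Ctsg passed in Ab_IR against Ctrl (limma adjusted p = 0.0105) and in L_IR against Ctrl (0.0104), while the genes that passed in all went from 255 to 2343 and from 1083 to 2680.

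**Figure D2:**
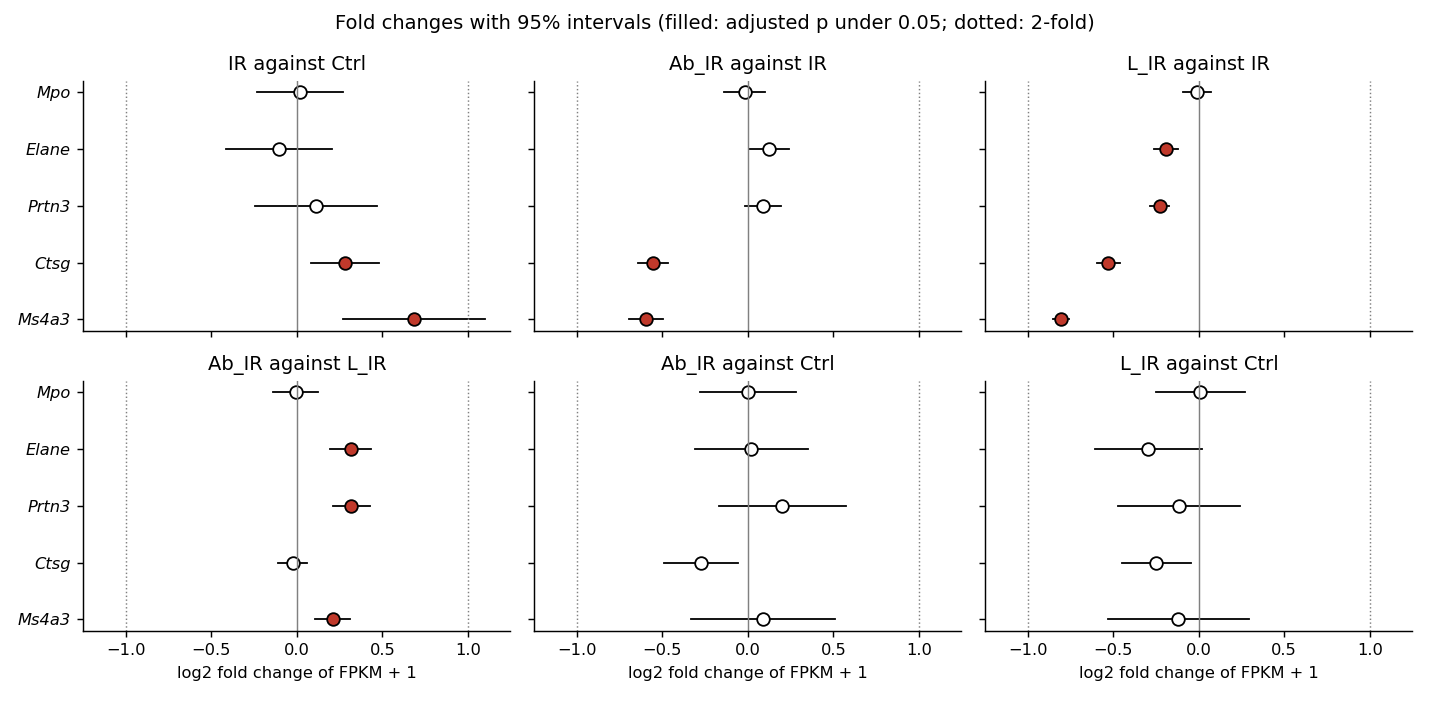
Log2 fold change of each member on the log2(FPKM + 1) scale with its 95% interval in the 6 comparisons, filled where the limma adjusted p is under 0.05, with dotted lines at 2-fold. Mpo lies at the zero line in every comparison, and the farthest point is Ms4a3 in L_IR against IR at -0.81.

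Ratios between members within a library do not depend on how libraries are scaled. The steadiest was Prtn3 to Elane, at 0.437, 0.472 and 0.475 in Ctrl and between 0.512 and 0.548 in the 9 irradiated libraries. Its mean was 0.461 ± 0.0211 for Ctrl, 0.536 ± 0.0112 for IR, 0.523 ± 0.00610 for Ab_IR and 0.522 ± 0.00911 for L_IR (SD, n = 3 each). Every irradiated library thus had more Prtn3 per Elane than every Ctrl library. On the log2 scale, the SD of this ratio was 0.0951 over 12 libraries and 0.0281 over the irradiated 9. Ms4a3 to Mpo varied most, with an SD of 0.382, from 0.0629 in Ctrl replicate 1 to 0.146 in IR.

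Elane to Mpo was 0.721 ± 0.0112 in IR, 0.797 ± 0.00811 in Ab_IR and 0.637 ± 0.00839 in L_IR, with no overlap among the irradiated groups, and 0.801 ± 0.178 in Ctrl. Ctsg to Mpo was 0.571 ± 0.0120 in IR against 0.478 ± 0.0320 in Ctrl, 0.395 ± 0.0168 in Ab_IR and 0.399 ± 0.0174 in L_IR. Ctsg was therefore high relative to Mpo in IR alone, and low in both other irradiated groups. With 3 libraries a group an exact permutation test of a ratio cannot go below p = 0.1, so these ratios are given as a description. Across the 12 libraries, which share groups and scaling, the log2 levels of Elane and Prtn3 had a Pearson r of 0.848 and those of Ctsg and Ms4a3 of 0.711, or 0.917 and 0.945 without Ctrl replicate 1. Mpo correlated with the other members at -0.387 to 0.179, or at -0.174 to 0.092 without Ctrl replicate 1.

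**Figure D3:**
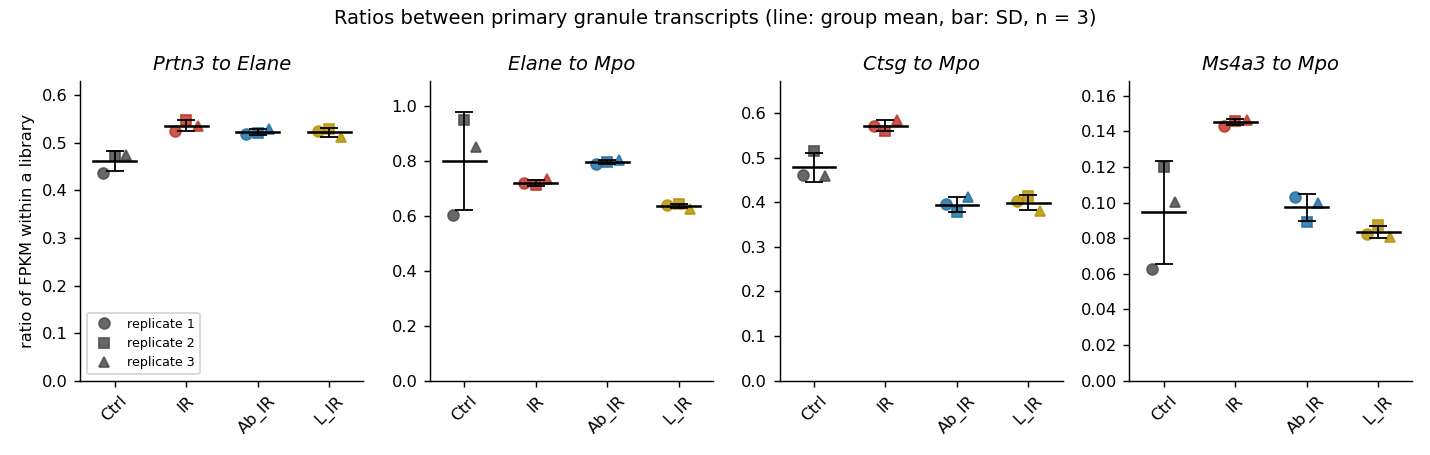
Ratio of FPKM between pairs of members within each library (linear axes from 0), with the group mean as a line and the SD as a bar (n = 3). Prtn3 to Elane keeps to 0.512 to 0.548 in the irradiated libraries, whereas Ctsg to Mpo and Ms4a3 to Mpo are highest in IR.

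Genes near the members had mixed patterns. R3hdm4, which lies 21837 bases from Elane, was at means of 17.0 FPKM in Ab_IR, 14.6 in IR and 13 in L_IR, the order that Elane had, and it is named after its values were seen. Med16, nearer to Elane, was at 11.3, 9.24 and 12.4 FPKM in the same groups, and Ptbp1 at 154, 186 and 169 FPKM, both in other orders. Epx, the eosinophil peroxidase gene and a paralogue of Mpo 59587 bases away, was at 582 ± 22.6 FPKM for Ctrl, 52.5 ± 1.32 for IR, 642 ± 32.2 for Ab_IR and 335 ± 3.64 for L_IR. It fell by 3.45 in IR against Ctrl (limma adjusted p = 2.47e-06) and was higher by 3.59 in Ab_IR and by 2.65 in L_IR than in IR, while Mpo stayed within 1.2-fold over all libraries. Lpo, the lactoperoxidase gene next to Mpo, was at 0.56 to 1.76 FPKM. Mcpt8, a basophil serine protease gene 14608 bases from Ctsg, was at 184 ± 15.4, 53.4 ± 0.475, 237 ± 3.72 and 140 ± 6.62 FPKM in Ctrl, IR, Ab_IR and L_IR. It fell by 1.76 in IR against Ctrl, where Ctsg rose. Ms4a2, which encodes the beta chain of the IgE receptor and lies 5777 bases from Ms4a3, was at 14.5 ± 3.10, 1.92 ± 0.0833, 13 ± 0.379 and 10.5 ± 0.584 FPKM, and it fell by 2.39 in IR against Ctrl, where Ms4a3 rose. Ms4a6d, another gene of the same family nearby, rose by 2.17. Cfd, the complement factor D gene beside Elane, did not exceed 0.47 FPKM. Of the 12 genes tested within 3 genes of a member, members themselves left out, 4 were higher in IR against Ctrl, 3 were lower and 5 did not pass, with a median of 0.05. A list of 11 tested genes around the members gave 3 higher and 5 lower, with a median of -0.12.

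**Figure D4:**
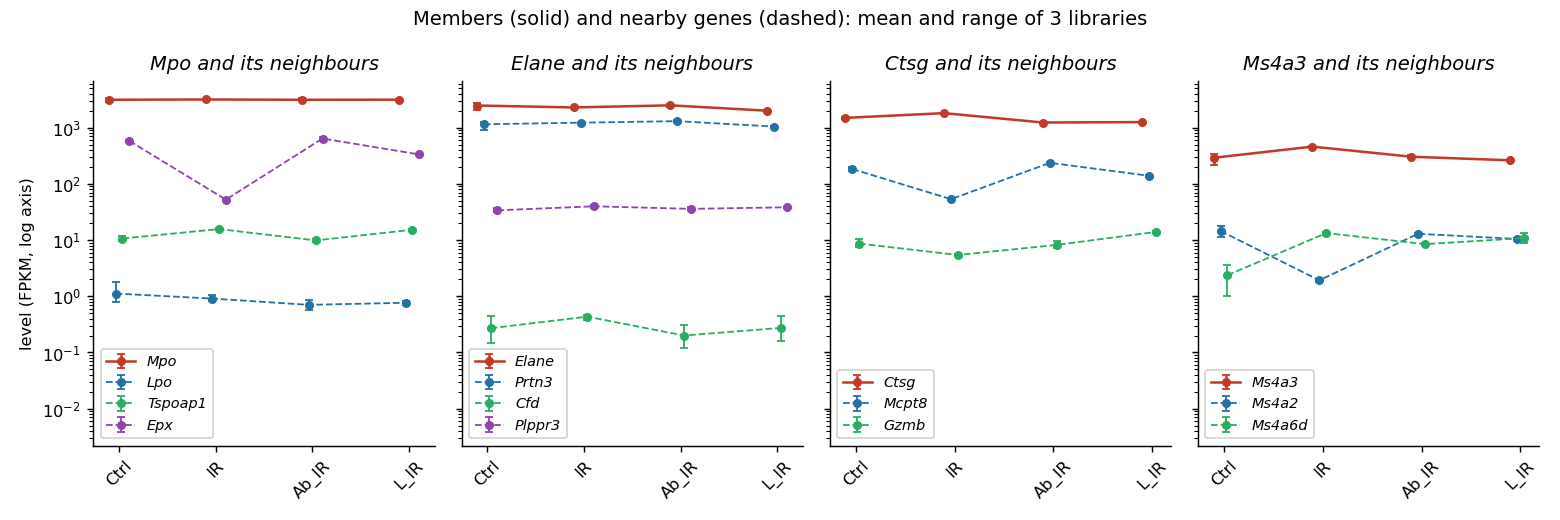
Mean level of Mpo, Elane, Ctsg and Ms4a3 (solid) and of genes near each (dashed) in the 4 groups, in FPKM on a log axis, with bars for the range of 3 libraries. Epx, Mcpt8 and Ms4a2 dip in IR, where Mpo is level and Ctsg and Ms4a3 are higher.

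Other proteins stored in or processed for the primary granule were mixed. Of 10 tested, 4 were higher and 3 lower in IR against Ctrl (median 0.07), 4 higher and 5 lower in Ab_IR against IR (median -0.04) and 3 higher and 6 lower in L_IR against IR (median -0.43). In Ab_IR against L_IR, 7 were higher and 1 lower (median 0.24). Calr, a chaperone of myeloperoxidase in the endoplasmic reticulum, was at 767 ± 31.9 FPKM for Ctrl, 1065 ± 14.1 for IR, 716 ± 24.5 for Ab_IR and 784 ± 11.1 for L_IR, high in IR like Ctsg. Srgn, the proteoglycan that holds granule proteases, was at 645 ± 111, 681 ± 20.8, 603 ± 36.4 and 482 ± 14.7 FPKM in the same order. Lyz2, lysozyme, was at 387 ± 41.6, 396 ± 3.62, 422 ± 16.5 and 265 ± 6.20 FPKM and fell by 0.58 in L_IR against IR (limma adjusted p = 2.13e-06), lying lowest in L_IR as Elane and Prtn3 did. Cst7, an inhibitor of lysosomal cysteine proteases, differed between IR and Ctrl by -0.09 (limma adjusted p = 0.562) and was higher by 0.29 in Ab_IR than in IR. Without Ctrl replicate 1, Cst7 passed in IR against Ctrl at -0.21 (limma adjusted p = 0.00517).

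Protease inhibitor genes were mostly highest in IR. Of 5 tested among 9 listed, Stfa1 included, which inhibits cysteine proteases and not the serine proteases described here, 4 rose in IR against Ctrl (median 0.81), and 4 fell in each of Ab_IR against IR (median -0.88) and L_IR against IR (median -0.82). Slpi, a secreted inhibitor of elastase and cathepsin G, was at 127 ± 44.4 FPKM for Ctrl, 564 ± 22.1 for IR, 262 ± 11.6 for Ab_IR and 318 ± 3.03 for L_IR, and it rose by 2.21 ± 0.271 in IR against Ctrl (limma adjusted p = 0.00127). Serpinb1a, which inhibits all 3 proteases inside the cell, was at 159 ± 7.20, 279 ± 4.66, 151 ± 9.97 and 133 ± 1.52 FPKM and rose by 0.81 ± 0.0635 (limma adjusted p = 2.19e-04). Stfa1 rose by 1.90 in IR, from a mean of 2.41 to 11.2 FPKM.

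All 6 subunits of the NADPH oxidase, which supplies the peroxide that myeloperoxidase uses, rose in IR against Ctrl (median 0.80) and fell in Ab_IR against IR (median -0.50) and in L_IR against IR (median -0.85). Ncf1, a cytosolic organizer subunit, was at 118 ± 7.98 FPKM for Ctrl, 234 ± 0.660 for IR, 118 ± 3.40 for Ab_IR and 101 ± 1.57 for L_IR, while Mpo stayed at means of 3139 to 3179 FPKM. Rac2, the GTPase of the complex, rose by 0.43 (limma adjusted p = 0.00267) and Cyba, a membrane subunit, by 0.76 (limma adjusted p = 0.00935). In Ab_IR against L_IR, all 6 were higher (median 0.26).

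Transcription factors known to act on primary granule genes moved in both directions, with 7 of 12 higher and 5 lower in IR against Ctrl (median 0.43). Spi1, which encodes PU.1, was at 59.9 ± 7.74 FPKM for Ctrl, 123 ± 3.78 for IR, 78.5 ± 9.05 for Ab_IR and 72.5 ± 0.795 for L_IR, and it rose by 1.03 ± 0.10 in IR (limma adjusted p = 5.01e-04). Cebpe, a factor of the later granule stages, was at 72.9 ± 19.2, 124 ± 2.23, 90.0 ± 4.22 and 61.6 ± 2.25 FPKM. It rose by 0.79 in IR (limma adjusted p = 0.0178) and fell by 0.997 in L_IR against IR. Myb, a factor of proliferating progenitors, fell by 0.54 in IR (limma adjusted p = 0.00562), from a mean of 59.8 to 40.6 FPKM. Cbfb, the partner of RUNX1, rose by 0.28 in IR (limma adjusted p = 0.0316). Of the 12, 5 were higher and 5 lower in Ab_IR against IR, and 5 higher and 7 lower in L_IR against IR.

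Genes of later granules had list medians farther from 0 than the members in all 6 comparisons, least so in Ab_IR against Ctrl (0.081 against 0.020). Without Ctrl replicate 1 the members were farther from 0 in Ab_IR against Ctrl, with a median of -0.11 beside 0.076. Of 10 secondary and tertiary granule genes, 8 rose in IR against Ctrl (median 1.04), 8 fell and 1 rose in Ab_IR against IR (median -1.10), and all 10 fell in L_IR against IR (median -2.73). Ngp was at 1112 ± 17.0 FPKM for Ctrl, 1680 ± 59.9 for IR, 1176 ± 50.1 for Ab_IR and 332 ± 5.35 for L_IR. Ltf, lactoferrin, was at 155 ± 1.02, 289 ± 1.79, 165 ± 4.44 and 32.3 ± 0.801 FPKM and fell by 3.12 in L_IR against IR (limma adjusted p = 2.23e-09), beside -0.19 for Elane. Camp, cathelicidin, whose protein proteinase 3 is known to cleave in humans, was at 264 ± 76.9, 262 ± 6.12, 374 ± 4.74 and 103 ± 2.28 FPKM, in the order Ab_IR, IR, L_IR that Elane and Prtn3 also had. In Ab_IR against L_IR all 10 were higher (median 1.53). In L_IR against Ctrl 9 of 10 were lower (median -1.52) and 0 of 5 primary granule genes passed in limma. There 8.84% of 12251 genes tested passed, 4.08% lower. Without Ctrl replicate 1 these counts were 10 of 10 (median -1.62) and 4 of 5, beside 20.6% of all genes that passed in either direction. The Ctrl libraries then kept had Nppa and L_IR did not, so a batch cannot be told apart.

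**Figure D5:**
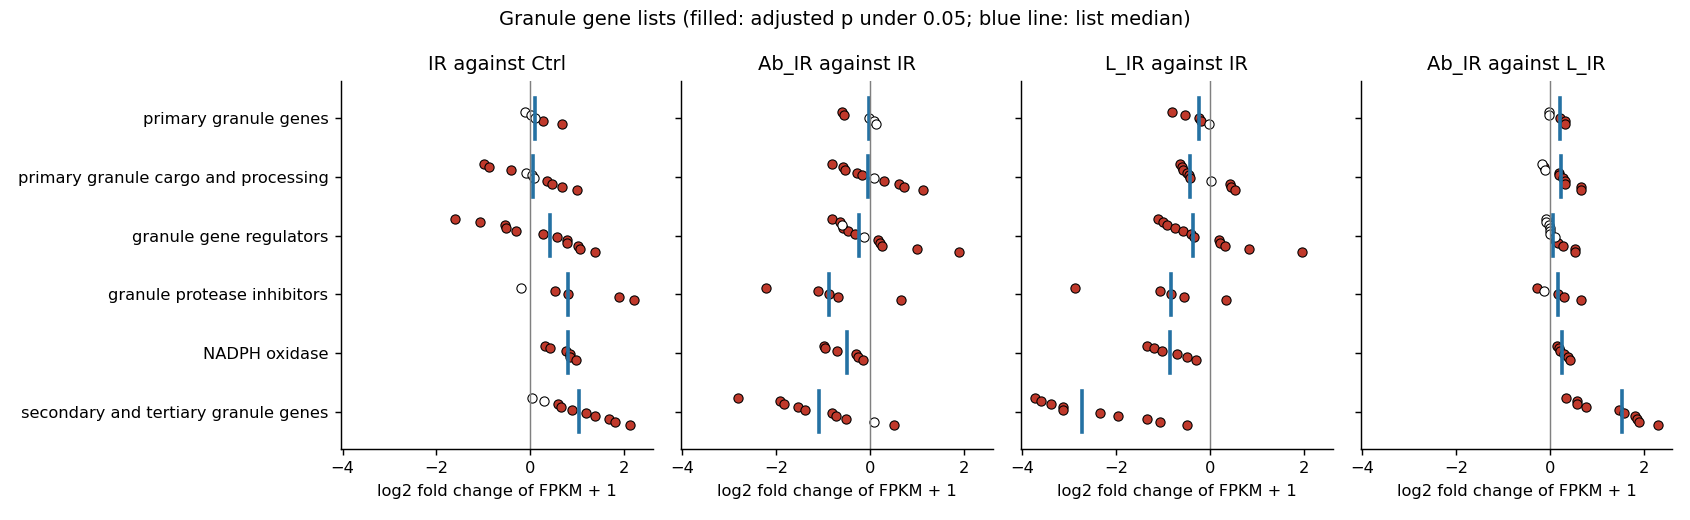
Log2 fold change on the log2(FPKM + 1) scale of every tested gene of the primary granule set and of 5 related lists in 4 comparisons, filled where the limma adjusted p is under 0.05, with a blue line at the list median. The primary granule genes stay between -0.81 and 0.69, while the medians of the secondary and tertiary granule genes run from -2.73 to 1.53.

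Early granulocyte genes other than the members were also mixed, with 7 of 12 higher and 3 lower in IR against Ctrl (median 0.41), 4 higher and 8 lower in Ab_IR against IR, and 2 higher and 9 lower in L_IR against IR. Plac8 differed between IR and Ctrl by 0.27 (limma adjusted p = 0.218) and fell by 0.26 in L_IR against IR. Without Ctrl replicate 1 it differed between IR and Ctrl by 0.10 (limma adjusted p = 0.300). Hp, counted both here and among the secondary and tertiary granule genes, was highest in IR. Its level was 262 ± 25.3 FPKM for Ctrl, 682 ± 14.6 for IR, 260 ± 7.49 for Ab_IR and 173 ± 5.76 for L_IR. Fcnb, a ficolin gene, fell by 0.34 in IR (limma adjusted p = 0.0121) and was at 142 ± 10.6, 112 ± 2.94, 126 ± 1.59 and 71.0 ± 2.67 FPKM. Nkg7 was at 209 ± 2.92 FPKM in IR and 266 ± 4.19 in Ab_IR, a rise of 0.35. Of 8 genes known for inherited neutropenia, a disease that the human ELANE gene is known for, 4 rose in IR against Ctrl and 4 did not pass.

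Markers of other cells moved with these results. Of 7 mature neutrophil markers, 4 were higher and 1 lower in IR against Ctrl, and their summed level was 1510 to 2846 FPKM for Ctrl, 5248 to 5768 for IR, 2177 to 2487 for Ab_IR and 983 to 1059 for L_IR. This sum was mostly S100a8 and S100a9, at means of 1701 and 3765 FPKM in IR. Retnlg, a marker on the same list, instead fell by 1.34 in IR against Ctrl, from a mean of 139 to 53.0 FPKM (limma adjusted p = 0.00161), and without Ctrl replicate 1 the counts were 4 higher and 3 lower. All 7 mast cell and basophil markers fell in IR against Ctrl and rose in both Ab_IR and L_IR against IR, with sums of 623 to 704, 228 to 235, 819 to 870 and 517 to 540 FPKM. Of 6 monocyte markers, 1 rose and 4 fell in IR against Ctrl, with sums of 269 to 304, 147 to 153, 226 to 236 and 245 to 248 FPKM. Of 6 B and plasma cell markers tested, 4 rose and 1 fell, and the list summed to 10054 to 13268, 17434 to 18651, 17867 to 18495 and 25593 to 26464 FPKM, mostly Igkc. All 5 erythroid markers given here (Hba-a1, Hbb-bs, Klf1, Epor and Alas2) fell in IR against Ctrl (median -2.58) and were higher than IR in both Ab_IR (median 2.43) and L_IR (median 1.64). Their sums were 1692 to 2196 FPKM for Ctrl, 318 to 325 for IR, 1938 to 2113 for Ab_IR and 957 to 997 for L_IR, lowest in IR.

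Of 10 stem cell markers 5 were tested, of which 1 rose and 3 fell in IR against Ctrl, with sums of 63.1 to 70.7, 65.0 to 72.3, 60.7 to 67.0 and 70.2 to 70.8 FPKM. Within that sum Kit fell by 1.63 (limma adjusted p = 3.83e-05), from a mean of 23.5 FPKM in Ctrl to 6.87 in IR beside 18.2 in Ab_IR and 17.9 in L_IR, and so was lowest in the group where Ctsg and Ms4a3 were highest. Ly6a rose by 0.75 (limma adjusted p = 0.0145), from 35.1 to 58.6 FPKM, with 38.1 in Ab_IR and 45.6 in L_IR. Cd34 fell by 2.13 (limma adjusted p = 8.06e-06) and Flt3 by 2.46 (limma adjusted p = 3.17e-05) in IR against Ctrl, both lowest in IR as Kit was. None of the 6 heart markers tested passed in IR against Ctrl in limma, also at unadjusted p-values, of which the lowest was 0.20 for Sln, and all 6 fell in Ab_IR and in L_IR against IR, where they summed to at most 0.58 FPKM. Mpo stayed level beside all of these shifts. The part of these cells in the differences of Ctsg, Ms4a3, Elane and Prtn3 was not tested.

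Genes whose levels ran most like each member's over the 12 libraries were picked, as a description, among 4537 genes averaging 10 FPKM or more. For Mpo they were Srrt, Nelfa and Cstf1, with a Pearson r of 0.869, 0.857 and 0.841 on the log2 scale. For Elane they were Cd14, Cdca3 and Dtwd1 (0.926, 0.886 and 0.883), and for Prtn3 they were Tspo, Prdx5 and Prdx6 (0.959, 0.953 and 0.949). Ctsg ran with Mlx, Cab39 and Pecr (0.978, 0.976 and 0.970), and Ms4a3 with Manf, Ifitm3 and Cycs (0.993, 0.976 and 0.976). Manf ranged from 46.8 to 111 FPKM and Ifitm3 from 83.8 to 305 FPKM, beside 216 to 465 FPKM for Ms4a3. The libraries share their groups and scaling, and no member was among the genes most like another.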

How the data were processed

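RNA-seq was analysed from 12 libraries of mouse bone marrow cells sorted as HSCs, grouped by treatment in the labels. The authors deposited a table of gene names and values per library, read here as FPKM: sums differ between libraries, and value times exon length in kb (GENCODE M21) sums to 913577 to 945263. The labels' processing notes name fastp, HISAT2, StringTie and GRCm38, while the study's methods name fastp, RSEM and DESeq2, and which of them made the deposited FPKM is not given in the sources used here. No steps of whole reads were seen among low values, and depth is unknown.

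Since FPKM are not counts, limma 3.58.1 (R 4.3.3, eBayes with trend, two-sided) was run on log2(FPKM + 1) with only the libraries of the compared groups, keeping rows that reached 1 FPKM in 3 or more of these libraries. The pseudocount of 1 understates changes of low genes. Every adjusted p is Benjamini-Hochberg over all genes tested, and a gene passed at an adjusted p under 0.05. The fits were tested on simulated data. Intervals are unadjusted 95% intervals.

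The members and gene lists were chosen with earlier results of these data known. Besides the members, up to 4 genes of highest mean FPKM per list, genes flanking a member on its chromosome and the 3 genes most correlated with each member were named. Nppa, Itgam and the stem cell markers at or near 0 came from the cell type lists and were chosen after their values were seen, as were F13a1 and R3hdm4. Some cell type markers are not reported here. Promoter windows are from RefSeq (GRCm38.p6) and gene positions from GENCODE M21 (GRCm38), and all 5 members were found in both by name. The starts differ between these sources for Mpo, Elane and Prtn3. Alternatives were the pseudocount, filters, normalization, a single fit of 12 libraries, the replicate block and leaving out each library. The counts without Ctrl replicate 1 on the same genes were added after seeing the data. Plots were made in Python 3.11.15 with matplotlib 3.10.9.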

Additional observations from a re-analysis of the deposited data

Results flagged for a closer look

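For 7 of 118 listed genes tested in these comparisons (5.93%, beside 368 of 11679 genes in all, or 3.15%), every Ab_IR library lay on one side of the IR libraries and every L_IR library on the other, and the difference between Ab_IR and L_IR passed in limma. Among the members these were Elane, higher in Ab_IR by 0.32 on the log2 scale (adjusted p = 0.00322), and Prtn3, higher by 0.32 (adjusted p = 0.00201). Camp was higher in Ab_IR by 1.86 (adjusted p = 4.02e-07), Fcnb by 0.82 (adjusted p = 2.14e-05) and Lyz2 by 0.67 (adjusted p = 5.94e-05). R3hdm4, which lies 21837 bases from Elane, was higher by 0.36, at means of 17.0 FPKM in Ab_IR, 14.6 in IR and 13 in L_IR. F13a1, a monocyte marker, went the other way with -0.35 (adjusted p = 4.41e-04), at means of 54.8, 66.6 and 70.1 FPKM.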

How the results depend on the processing

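The number of members that passed changed with the fit in all 6 comparisons. Without a filter on low values 0 passed in IR against Ctrl instead of 2, with 4732 genes passing in all instead of 5199. Quantile normalization gave 4 in Ab_IR against IR instead of 2, and 2 in L_IR against Ctrl instead of 0, with 8251 and 1169 genes passing in all instead of 8293 and 1083. All 12 libraries in a single fit gave 2 in L_IR against IR, 1 in Ab_IR against L_IR, 1 in L_IR against Ctrl and 1 in Ab_IR against Ctrl, where 5763, 2465, 2680 and 2343 genes passed in all instead of 8124, 4628, 1083 and 255. Leaving out 1 library at a time gave 0 to 3 in IR against Ctrl and 0 to 4 in L_IR against Ctrl, the 3 and the 4 without Ctrl replicate 1, where 59.8% and 20.6% of all genes passed. In IR against Ctrl the 0 came without any 1 of the IR libraries, where 3358 to 3368 genes passed in all. Rescaling without immunoglobulin genes moved the summed member level to 9383 FPKM in IR, 7983 in Ab_IR and 8034 in L_IR, and the median of all genes by 0.126 in Ab_IR against IR.

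Directions that turned, none of them of a member that passed as reported, were mostly close to 0. Under quantile normalization they were Elane 0.21 and Prtn3 -0.094 in IR against Ctrl, Elane -0.25 in Ab_IR against IR (adjusted p = 0.0117), and Mpo -0.073, Elane -0.026, Prtn3 -0.032 and Ms4a3 -0.14 in Ab_IR against Ctrl. Rescaled without immunoglobulin genes, they were Elane -0.030 and Prtn3 -0.065 in Ab_IR against IR, and Mpo -0.067 and Elane -0.048 in Ab_IR against Ctrl. Leaving out 1 library at a time gave Mpo -0.046 to 0.086 and Prtn3 -0.051 to 0.20 in IR against Ctrl, and Mpo -0.065 to 0.022 in Ab_IR against IR, -0.032 to 0.013 in L_IR against IR and -0.053 to 0.034 in Ab_IR against L_IR. It gave Mpo -0.066 to 0.066, Elane -0.11 to 0.089 and Ms4a3 -0.11 to 0.22 in Ab_IR against Ctrl, and Mpo -0.057 to 0.074 and Ms4a3 -0.32 to 0.012 in L_IR against Ctrl. Mpo passed at -0.33 in Ab_IR against IR and -0.21 in L_IR against IR under quantile normalization, and at -0.17 in Ab_IR against IR without immunoglobulin genes. The cause was not tested.

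The replicate numbers were not taken to pair the libraries, since no comparison had all 3 same-numbered correlations of deviations above 0.1. With 3 libraries a group, these correlations cannot exclude a pairing. With the replicate block, 1 member passed in IR against Ctrl, Ctsg missing it at a limma adjusted p of 0.106, and 4295 genes passed in all instead of 5199. In no comparison did every library correlate best with its own number. In Ab_IR against L_IR the correlations were -0.27, -0.03 and -0.27. Depth is unknown and limits what can be said of low genes. With 3 libraries a group and Ctrl replicate 1 apart, intervals in comparisons with Ctrl were widest.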
